A study of Mus musculus with 6 samples.

Results

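The genes described here are 10 components of the vascular basement membrane, namely the laminin chain genes *Lama2*, *Lama4*, *Lama5*, *Lamb1*, *Lamb2* and *Lamc1*, the nidogen genes *Nid1* and *Nid2*, *Hspg2* (perlecan) and *Agrn* (agrin). They were chosen by symbol, and all 10 were present among the 24972 gene symbols of the deposited table. RNA-Seq was performed on isolated lung endothelial cells (iLECs) from 3 control and 3 Atp6ap2 iECKO mouse samples at P7, with 1 library per sample. According to the labels, controls were PRR (Atp6ap2)fl/Y and mutants PRR (Atp6ap2)fl/Y; Cdh5-CreERT2+, all on strain C57BL/6, whereas the study's methods describe a mixed CD1 and C57BL/6 background. Pups of both genotypes received 100 μg tamoxifen on P1 to P3, and both carried the floxed *Atp6ap2* allele. Only the mutants carried the tamoxifen-inducible Cre under the promoter of *Cdh5*, the gene of VE-cadherin, so that the presence of Cre and the deletion cannot be told apart. Cells were taken from digested lungs with magnetic beads coated with a CD31 antibody, without a further sort, and whether animals were pooled is not given in the sources used here. By immunoblot, the study detected VE-cadherin only in iLECs, and αSMA and desmin in the nonendothelial fraction.

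A laminin is a trimer of 1 α, 1 β and 1 γ chain, and the α chain sets which receptors the trimer binds. Endothelial cells are known for making trimers with laminin α4 and laminin α5, joined to β1 or β2 and to γ1. Laminin α2 is known chiefly from muscle and from mesenchymal, mural and other nonendothelial cells. Nidogens bind the γ1 chain and link the laminin network to that of type IV collagen, while perlecan and agrin are large heparan sulfate proteoglycans that bind laminin and, through dystroglycan, the cell surface.

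Gene levels are given as normalized counts, the estimated counts per gene after scaling between libraries by the authors, whose totals lay between 26243878 and 28725799 per library. *Atp6ap2* had a normalized count of 7490, 5815 and 5681 in the controls and of 4220, 2336 and 1982 in Atp6ap2 iECKO iLECs (log2 fold change -1.22, adjusted *P* = 0.0306 by limma). Mutant replicate 1 thus kept the most transcript, and without control replicate 1, 2 or 3 or mutant replicate 2 or 3 the adjusted *P* value of *Atp6ap2* lay between 0.0628 and 0.103. *Xist*, transcribed from the inactive X chromosome, went against the fl/Y label in 4 of the 6 libraries, at 37704 and 44402 in controls 1 and 2 and 39442 and 47487 in mutants 1 and 3, but at 31.7 in control 3 and 19.3 in mutant 2. The study analyzed neonates of both sexes and counted fl/Y males and fl/fl females in both groups. It does not state the sex of the animals behind each library. All 20 endothelial markers were detected, and their summed normalized count ranged from 398239 to 498545 in controls and from 425635 to 478594 in mutants.

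To compare the genes with each other, each normalized count was divided by the kilobases of all annotated exons merged. In control iLECs, *Nid1* had the highest level of the 10 genes, 4329 ± 516 per kb (SD, n = 3), followed by *Lamc1* with 3021 ± 275 and *Agrn* with 2690 ± 192 (normalized counts per kb, SD, n = 3), the last 2 of which overlapped. *Lama5* (1477 ± 102 per kb) was above *Lamb2* (1187 ± 58.1 per kb) in every control library. *Lamb2*, *Hspg2* (1160 ± 207 per kb), *Lamb1* (989 ± 184 per kb), *Nid2* (849.8 ± 160.3 per kb) and *Lama4* (631.5 ± 73.0 per kb) each overlapped the next gene in this order. *Lama2* was lowest, with 144 ± 34.5 per kb in controls and 50.8 ± 6.24 per kb in mutants (SD, n = 3), and did not overlap *Lama4* in either genotype. With the longest transcript as the length, *Lama4* reached 1260 ± 146 per kb and *Lamb1* 1698 ± 316 per kb in controls, and *Lama2*, at 245 ± 58.7 per kb, was still the lowest. In Atp6ap2 iECKO iLECs, *Hspg2* (1648 ± 189 per kb of all exons) came directly after *Agrn* (2052 ± 282 per kb), ahead of *Lama5* (1130 ± 95 per kb), and none of these neighbors overlapped.

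*Lama2*, which encodes laminin α2 and lies on chromosome 10 of GRCm38 from 26980036 to 27619758, was the only 1 of the 10 genes to pass the test. Its normalized count was 1789, 2916 and 2368 in controls 1 to 3 and 944, 794 and 750 in mutants 1 to 3. Every mutant library was below every control library, and the mean was 2358 ± 564 in controls and 829 ± 102 in mutants (SD, n = 3 each). The log2 fold change was -1.48 (standard error 0.18, 95% interval from -1.89 to -1.08, adjusted *P* = 0.00831, limma), so that *Lama2* fell by 64.3%. It passed in all 6 fits that each left out 1 replicate, with log2 fold changes from -1.67 to -1.32. Within the libraries with high *Xist*, 2 against 2, it was -1.44 (adjusted *P* = 0.121, limma, where no gene passed), and control 3 and mutant 2, both low in *Xist*, had 2368 and 794.

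*Lama5*, on chromosome 2 from 180176373 to 180225859, encodes laminin α5 of arterial and capillary basement membranes. It had a normalized count of 15488, 17556 and 17435 in controls and of 13635, 13339 and 11637 in Atp6ap2 iECKO iLECs, without overlap. Its log2 fold change was -0.39 (standard error 0.10, 95% interval from -0.62 to -0.16, adjusted *P* = 0.0532, limma), just outside the threshold of 0.05, which it met without control replicate 1 (adjusted *P* = 0.0467) and with a higher minimum level for testing (0.0485), and missed without any other replicate (0.0761 to 0.197). *Lama2* and *Lama5* were among the genes that the study itself picked from these libraries for display. Its caption calls the extracellular matrix genes displayed differentially expressed, by a test other than the one used here. Outside these libraries, the study reported lower *Lama2* by qPCR in isolated retinal endothelial cells of mutants. It also reported less laminin protein in mutant iLECs, and in prorenin-stimulated human aortic endothelial cells treated with *Atp6ap2* siRNA. Its methods name the antibody only as anti-laminin, so the protein results are not assigned to a chain. The retinal cells, too, were isolated with beads coated with a CD31 antibody. *Lama4*, on chromosome 10 from 38965515 to 39110188, encodes laminin α4, whose trimers line most blood vessels. It had 7167, 8638 and 7061 in controls and 7715, 10434 and 10054 in mutants, where mutant 1 lay within the range of the controls and mutants 2 and 3 above it. Its log2 fold change of 0.30 (standard error 0.14, 95% interval from -0.02 to 0.61) did not pass (adjusted *P* = 0.235, limma).

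*Lamb1* (chromosome 12, from 31265234 to 31329644) and *Lamb2* (chromosome 9, from 108479736 to 108490530) encode the β chains that pair with these α chains. *Lamb1* had a normalized count of 7834, 11429 and 10183 in controls and of 7751, 8852 and 7256 in mutants. *Lamb2* had 7622, 6964 and 7069 in controls and 7384, 5485 and 4642 in mutants, with mutant 1 among the controls and mutants 2 and 3 below them. The log2 fold changes were -0.29 for *Lamb1* (standard error 0.15, adjusted *P* = 0.276) and -0.33 for *Lamb2* (standard error 0.16, adjusted *P* = 0.247, limma). With 1 replicate left out, *Lamb1* ranged from -0.44 to -0.17 and did not pass, and *Lamb2* ranged from -0.52 without mutant 1, where it passed (adjusted *P* = 0.0363), to -0.18 without mutant 3 (0.594, limma). *Lamc1*, on chromosome 1 from 153218922 to 153332786, encodes laminin γ1, the γ chain common to nearly all vascular laminins. Its normalized counts of 24597, 27427 and 22928 in controls and 23248, 23132 and 22061 in mutants overlapped, with a log2 fold change of -0.13 (95% interval from -0.36 to 0.10, adjusted *P* = 0.494, limma), so that a fall larger than 0.36 on the log2 scale lay outside the interval.

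**Figure D1:**
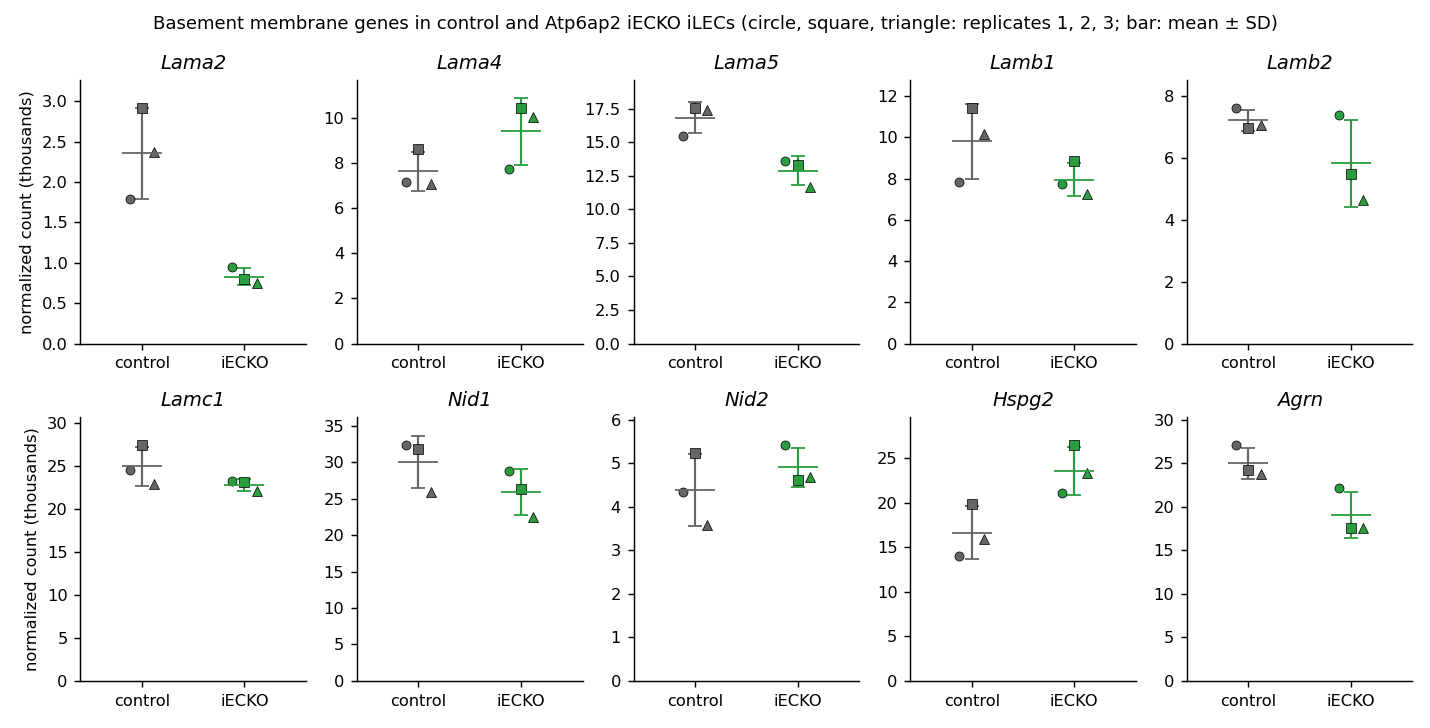
Normalized count (linear axis from 0) of each of the 10 genes in 3 control and 3 Atp6ap2 iECKO libraries, where each symbol is 1 library and the bars are the mean and SD. The mutant libraries lie below all controls for *Lama2*, *Lama5* and *Agrn* and above all controls for *Hspg2*, and overlap the controls for the other 6 genes.

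The nidogens that join laminin to type IV collagen did not pass the test. *Nid1*, on chromosome 13 from 13437551 to 13512269, had 32346, 31862 and 25920.4 in controls and 28834, 26400.1 and 22533 in mutants (log2 fold change -0.21, 95% interval from -0.52 to 0.10, adjusted *P* = 0.390, limma). *Nid2*, on chromosome 14 from 19751265 to 19811787, had 4344, 5246 and 3590.4 in controls and 5411, 4618 and 4681 in mutants (log2 fold change 0.17, 95% interval from -0.15 to 0.49, adjusted *P* = 0.511, limma). Both genes overlapped between genotypes, *Nid1* with the lower mutant mean and *Nid2* with the higher. Of the exon bases of *Nid2*, 8.4% are shared with *Rtraf* on the opposite strand, which the library kit does not distinguish. Such overlap with antisense transcripts was 3.9% for *Lama2* and 2.1% for *Nid1*, and 0 bases for the other 7 genes.

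*Hspg2* and *Agrn*, both on chromosome 4 (from 137468769 to 137570630 and from 156165290 to 156197488), moved in opposite directions without passing the threshold. *Hspg2* had a normalized count of 14064, 19858 and 15893 in controls and of 21032, 26426 and 23293 in Atp6ap2 iECKO iLECs, where each mutant was above each control. Its log2 fold change was 0.51 (standard error 0.15, 95% interval from 0.18 to 0.85, adjusted *P* = 0.0721, limma), a 1.43-fold difference. *Agrn* had 27035, 24169 and 23755 in controls and 22084, 17584 and 17515 in mutants, each mutant below each control. Its log2 fold change was -0.40 (standard error 0.12, 95% interval from -0.67 to -0.12, adjusted *P* = 0.0863, limma). *Hspg2* passed without control replicate 2 (adjusted *P* = 0.0415), and *Agrn* without mutant replicate 1 (0.0457) or with libraries scaled to the endothelial markers (0.0313, limma). Without any other single replicate, the adjusted *P* value was 0.081 to 0.221 for *Hspg2* and 0.139 to 0.278 for *Agrn*.

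Counted together, 1 of the 10 genes was downregulated and 0 were upregulated at an adjusted *P* value below 0.05 (limma), where 8.25% of the 14456 genes tested were called in either direction, 4.97% downregulated and 3.28% upregulated. Without adjustment, 4 of the 10 genes (*Lama2*, *Lama5*, *Hspg2* and *Agrn*) had a *P* value below 0.05, against 23.9% of all genes. The same 4 genes did not overlap between genotypes, 3 lower and 1 higher, against 29.8% of all genes (15.0% lower and 14.7% higher). With 10 genes, these counts are near the shares of all genes. Among the 10 genes, log2 fold changes had a median of -0.25, and of -0.21 over the 9 without *Lama2*, against 0.00 over all genes tested. *Lama2* ranked 52 by *P* value and 250 by size of fall among all genes. Its SD within genotypes, 0.28 on the log2 scale, was the largest of the 10 genes, and that of *Lamc1*, 0.10, the smallest, against a median of 0.19 over all genes.

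Sequences upstream of the annotated starts are given for the 4 genes without overlap between genotypes, chosen for their values, so that the windows shown are not a sample of the 10 genes. They were taken from RefSeq (GRCm38.p6), in which 7 of the 10 genes had a window, and end at the base before the RefSeq start, or for *Hspg2* before the first base of an annotated GENCODE exon. Capitals mark GC boxes, read as GGGCGG on either strand, where overlapping matches run together.
*Lama2*, chr10:27616943-27617192, minus strand: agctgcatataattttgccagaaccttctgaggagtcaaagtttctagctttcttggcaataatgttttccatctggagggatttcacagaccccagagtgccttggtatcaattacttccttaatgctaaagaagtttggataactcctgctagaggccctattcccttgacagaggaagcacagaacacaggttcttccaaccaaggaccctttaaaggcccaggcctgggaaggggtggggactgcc
*Lama5*, chr2:180225860-180226109, minus strand: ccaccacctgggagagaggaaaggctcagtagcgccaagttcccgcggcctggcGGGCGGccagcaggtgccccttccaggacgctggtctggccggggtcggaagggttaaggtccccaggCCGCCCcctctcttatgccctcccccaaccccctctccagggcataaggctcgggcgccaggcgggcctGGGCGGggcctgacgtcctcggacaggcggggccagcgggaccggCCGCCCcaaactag
*Agrn*, chr4:156197489-156197738, minus strand: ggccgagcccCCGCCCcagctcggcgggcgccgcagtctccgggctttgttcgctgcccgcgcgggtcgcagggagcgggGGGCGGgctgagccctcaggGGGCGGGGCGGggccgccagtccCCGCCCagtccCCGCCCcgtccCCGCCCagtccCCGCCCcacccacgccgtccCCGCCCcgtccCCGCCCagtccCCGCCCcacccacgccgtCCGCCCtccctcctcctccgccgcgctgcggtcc
*Hspg2*, chr4:137468553-137468768, plus strand: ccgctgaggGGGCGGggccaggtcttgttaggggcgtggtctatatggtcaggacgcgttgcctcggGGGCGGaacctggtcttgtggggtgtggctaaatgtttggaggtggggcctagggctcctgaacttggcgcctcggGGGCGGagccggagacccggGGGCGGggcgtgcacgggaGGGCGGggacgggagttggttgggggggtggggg
The *Lama2* window lies in an intron of the GENCODE gene model, which starts farther upstream, while those of *Lama5* and *Agrn* lie outside any annotated gene. Over 250 bases, the *Lama2* window held 0 CpG dinucleotides and 0 GC boxes, with a GC content of 47.2%. The *Lama5* window held 19 CpGs and 4 GC boxes (72.4% GC), that of *Hspg2* 20 CpGs and 5 GC boxes (70.0% GC), and that of *Agrn* 35 CpGs and 12 GC boxes (83.6% GC). A low CpG content was not particular to *Lama2*, since the window of *Lamb2*, which did not pass the test, held 3 CpGs and 0 GC boxes (43.6% GC). Those of *Lamb1* and *Nid1* held 14 and 16 CpGs. Among 32851 RefSeq windows of that length the median was 6 CpGs and 52.4% GC, and 32.7% held a GC box. None of the 4 windows held TATAAA, which 12.4% of all windows held on either strand, or CCAAT, which 33.8% held. RefSeq gives *Agrn* a further start inside the gene, whose window is not shown. These matches describe letters and were not tested against the changes in expression.

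To set *Lama2* against the laminin chains that endothelial cells are known to make, the ratio of their normalized counts, without correction for length, was taken within each library, which does not depend on scaling between libraries. The ratio of *Lama2* to *Lama4* was 0.250, 0.338 and 0.335 in controls 1 to 3, and 0.122, 0.0762 and 0.0746 in mutants 1 to 3. This was a difference of -1.78 on the log2 scale, the largest of the 5 ratios. Against *Lama5* the log2 ratio was -2.86 ± 0.26 in controls and -3.96 ± 0.11 in mutants, a difference of -1.10. The differences were -1.19 against *Lamb1*, -1.15 against *Lamb2* and -1.36 against *Lamc1*. For each of the 5 chains the ratio was lower in each mutant than in any control. All 5 ratios share *Lama2* as the numerator, so they largely restate its own fall and are not 5 separate results. A two-sided exact permutation test gave *P* = 0.1 for each ratio and 0.1 after adjustment over the 5, which is the smallest *P* value that 3 samples against 3 allow, so that no ratio could pass 0.05.

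**Figure D2:**
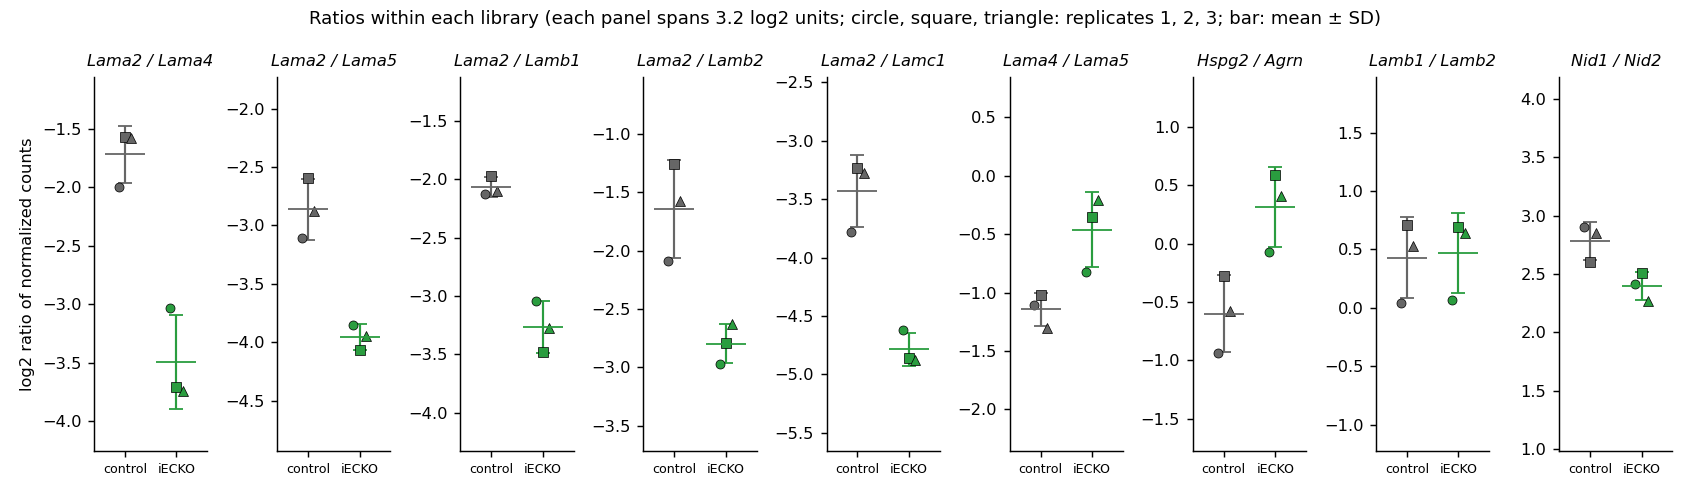
Log2 ratio of the normalized counts of 2 genes within each library, by genotype, with mean and SD (n = 3), where each panel spans the same number of log2 units around its own center. All 5 ratios of *Lama2* to another chain are lower in every mutant library, by -1.10 to -1.78 on average, and *Lamb1* / *Lamb2* overlaps.

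Ratios between other pairs were read after their values had been seen and were not tested. The ratio of *Lama4* to *Lama5* was 0.463, 0.492 and 0.405 in controls and 0.566, 0.782 and 0.864 in mutants. That of *Hspg2* to *Agrn* was 0.520, 0.822 and 0.669 in controls and 0.952, 1.5 and 1.33 in mutants. Both ratios were higher in every mutant than in any control, and mutant 1 was closest to the controls. The ratio of *Nid1* to *Nid2*, with 7.45, 6.07 and 7.22 in controls and 5.33, 5.72 and 4.81 in mutants, was lower in every mutant. The ratio of the β chains *Lamb1* and *Lamb2* overlapped, with 1.03, 1.64 and 1.44 in controls and 1.05, 1.61 and 1.56 in mutants.

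The share of each α chain in the summed α chain signal per kb was taken over *Lama1* to *Lama5*. *Lama5* made up 59.4%, 58.8% and 59.8% in controls and 56.1%, 50.7% and 48.5% in Atp6ap2 iECKO iLECs. *Lama4* made up 26.0%, 27.3% and 22.8% in controls and 30.0%, 37.5% and 39.5% in mutants, and *Lama2* 4.79%, 6.81% and 5.66% against 2.71%, 2.11% and 2.18%. These 3 shares did not overlap between genotypes, with *Lama4* higher by 10.3 percentage points and *Lama5* and *Lama2* lower (differences of -7.59 and -3.42 points). Each had an exact permutation *P* of 0.1 (two-sided, the smallest possible), or 0.167 adjusted over 5 chains. The shares within a library depend on each other, so lower *Lama5* and *Lama2* by themselves raise the share of *Lama4*. The normalized count of *Lama4* overlapped between genotypes and did not pass (log2 fold change 0.30, adjusted *P* = 0.235, limma). *Lama3* (7.37 ± 2.42% and 8.34 ± 0.163%) and *Lama1* (2.15 ± 1.04% and 1.92 ± 0.996%, SD, n = 3) overlapped, and the sign of the *Lama1* difference turned without control replicate 1 (0.373 points), mutant replicate 2 (0.0785) or mutant replicate 3 (0.0399). The levels themselves depend on the length used. With the longest transcript, *Lama4* and *Lama5* were 39.1 ± 2.80% and 45.9 ± 1.28% in controls and 51.7 ± 5.6% and 37.8 ± 4.23% in mutants, so that *Lama4* was then the most abundant α chain in all 3 mutants. Summed by class per kb, the α chains overlapped between genotypes (2489 ± 177 in controls and 2183 ± 109 in mutants, exact permutation *P* = 0.2). The β chains (2262 ± 137 and 1842 ± 254, SD, n = 3 each) did not (exact permutation *P* = 0.1). The gap between the β sums was small, with 2103.7 in control 1 and 2075.9 in mutant 1. *Lamb1*, *Lamb2* and *Lamb3*, which make up the β sum, each overlapped by themselves. These class sums were not among the planned comparisons.

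**Figure D3:**
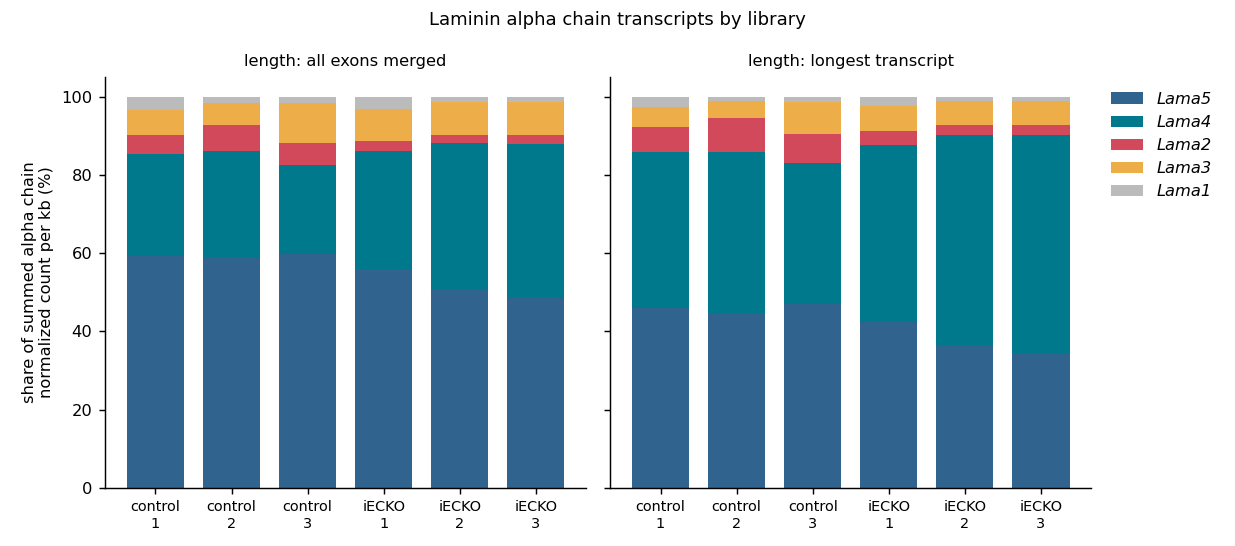
Share (percent) of each laminin α chain gene in the summed normalized count per kb of *Lama1* to *Lama5*, 1 bar per library, with the merged exons (left) or the longest transcript (right) as the length. *Lama4* takes 22.8% to 27.3% in controls and 30.0% to 39.5% in mutants with the merged exons, and *Lama2* is at most 2.71% in mutants.

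Most fibroblast, mural and smooth muscle markers moved with *Lama2* in the same libraries. Downregulated were 15 of the 18 fibroblast markers tested (0 upregulated, median log2 fold change -1.54) and 11 of the 19 for mural and smooth muscle cells (0 upregulated, median -1.45), against -1.48 for *Lama2*. The share over all genes tested was 4.97% downregulated and 3.28% upregulated. The summed fibroblast markers ranged from 187978 to 237930 in controls and from 101420 to 140254 in mutants, or from 111568 to 170809 and 41773 to 58257 without the elastin gene *Eln*. For the mural sum, the range was 64023 to 65447 in controls and 46002 to 54433 in mutants, or 21096 to 31100 and 9000 to 11100 without *Mcam*, which endothelial cells also express. Leaving out these 2 genes was decided after their values had been seen. No marker on these lists was at 0 in all libraries. *Pdgfrb*, which is on the mural list and was picked after its values had been seen, had 5212 to 7430 in controls and 1934 to 2881 in mutants. Of 20 endothelial markers 1 was downregulated and 1 upregulated (median 0.02). Of the epithelial markers 1 of 20 was upregulated (median -0.13), and of 18 leukocyte markers tested 0 passed and 0 had an unadjusted *P* value below 0.05 (limma, median 0.29). The part of these other cells in the result for *Lama2* was not tested, and in bulk libraries fewer cells of a type cannot be told apart from less RNA per cell.

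Among 11311 genes with a mean normalized count of at least 100, those whose log2 profile over the 6 libraries was closest to that of *Lama2* were *Gucy1a1*, *Adra1b*, *Col1a2*, *Bmp5* and *Mrc2*. Their root-mean-square differences from it were 0.06 to 0.08 on the log2 scale, and their log2 fold changes -1.43 to -1.60. Closeness was taken over both genotypes, so fold changes near that of *Lama2*, or of *Lama4* below, follow from the choice. *Gucy1a1* was on the mural list and *Col1a2* on the fibroblast list. The closest to *Lama4* were *U2surp*, *Fsd1l*, *Casp8ap2*, *Nbn* and *Hspe1* (0.04 to 0.05, with log2 fold changes from 0.25 to 0.35), none of which was on a list used here.

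**Figure D4:**
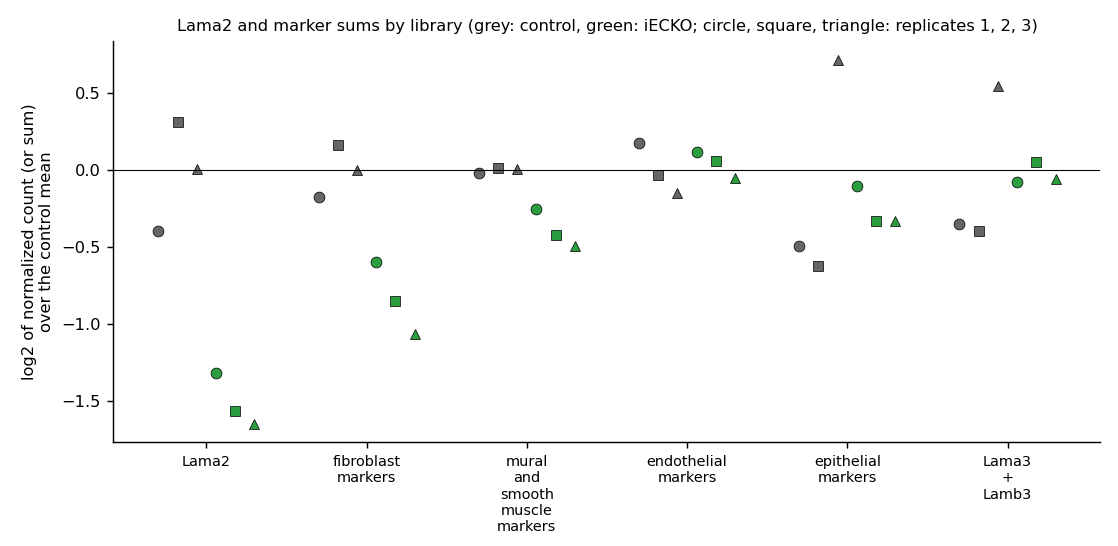
Log2 of the normalized count, or of the sum over a list, relative to the mean of the 3 controls, by library, for *Lama2*, 4 marker lists and the sum of *Lama3* and *Lamb3*. *Lama2*, the fibroblast sum and the mural sum are below all controls in the 3 mutants, and control replicate 3 is highest for the epithelial markers and for the last sum.

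For 4 further laminin chain genes tested, 0 passed and 0 had an unadjusted *P* value below 0.05 (limma), with log2 fold changes from -0.36 for *Lama1* to 0.17 for *Lamc3*. *Lama1*, a chain of embryonic and epithelial basement membranes, had 742 and 634 in replicate 1 of control and mutant but 283 to 399 in the other 4 libraries. *Lama3* and *Lamb3* encode chains of epithelial laminins. *Lama3* had 2779 in control 3, against 1555 to 2082 in the other 5 libraries, and *Lamb3* had 919 in control 3, against 366 to 544. The summed epithelial markers were 88090 in control 3 and 34805 to 49796 in the others, and their part in these values was not tested. These chains were named after their values had been seen.

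Of 10 laminin receptor genes, 2 were downregulated and 0 upregulated, with a median log2 fold change of 0.00 over the list. Over all genes tested, 4.97% were downregulated and 3.28% upregulated. Without overlap between genotypes were 5 of the 10, 3 lower and 2 higher, against 15.0% and 14.7% of all genes. *Itga1*, the integrin α1 subunit of a collagen and laminin receptor, had 6968, 8435 and 6218 in controls and 3684, 3551 and 2906 in mutants (log2 fold change -1.09, standard error 0.14, adjusted *P* = 0.00857). *Itga7*, the laminin-binding integrin α7 subunit of muscle, was low at 145, 215 and 175 in controls and 64.3, 42.8 and 68.9 in mutants (-1.60, standard error 0.27, adjusted *P* = 0.0152). Without control replicate 3 or mutant replicate 2, *Itga1* alone of the 10 passed. Picked for their known roles after the values had been seen, the main endothelial laminin receptor subunits did not pass, with log2 fold changes of -0.15 for *Itga6*, 0.16 for *Itga3* and 0.06 for *Itgb1*, nor did *Dag1*, the dystroglycan gene (-0.33, adjusted *P* = 0.119, limma).

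On a list of 28 other basement membrane genes, 27 were tested (*Hmcn2* was not analysed here). Of these, 5 were downregulated and 1 was upregulated (4.97% and 3.28% over all genes tested), with a median of 0.08. *Npnt*, encoding nephronectin, had 13992, 18834 and 17680.4 in controls and 7670, 6499.9 and 5524 in mutants (log2 fold change -1.36, adjusted *P* = 0.00831). *Frem1* (-1.62, adjusted *P* = 0.0123), *Fbln1*, encoding fibulin 1 (-1.50, 0.0256), *Egflam*, encoding the dystroglycan ligand pikachurin (-1.09, 0.0138), and *Hmcn1*, encoding hemicentin 1 (-0.78, 0.0299), also fell. The part of nonendothelial cells in these falls, and in those of *Itga1* and *Itga7*, was not tested. *Tinagl1*, encoding a laminin-binding matrix protein, rose from 1503, 1718 and 1781 to 3637, 3987 and 3428, or 2.21-fold (log2 fold change 1.14, standard error 0.10, adjusted *P* = 0.00551, limma). Without mutant replicate 2 the list kept *Npnt*, *Frem1* and *Tinagl1*, and without mutant replicate 3 *Npnt* and *Tinagl1*. The call of *Hmcn1* was lost without control replicate 1, those of *Fbln1* and *Hmcn1* without control replicate 2, and those of *Egflam* and *Fbln1* without control replicate 3. The type IV collagen genes did not pass. *Col4a1*, likewise picked afterwards and part of the collagen network to which nidogens link laminin, ranged from 151982 to 170473 in controls and from 164894 to 184529 in mutants (log2 fold change 0.13, adjusted *P* = 0.669, limma). By immunostaining of retinas, the study reported less collagen IV in mutants and described this as similar to its iLEC RNA-Seq data. That result is for protein in another tissue, whereas the values here are for RNA in iLECs.

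**Figure D5:**
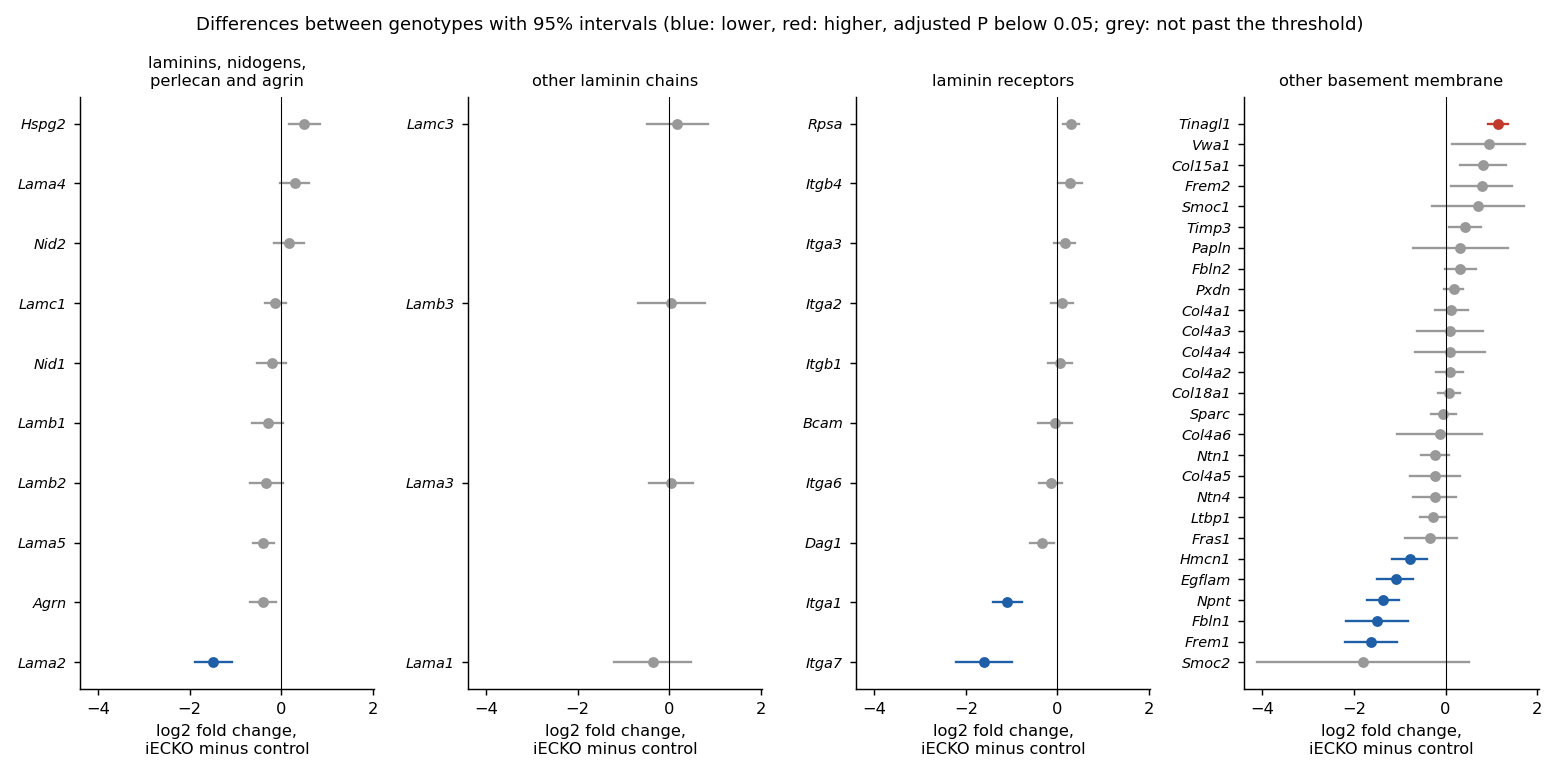
Log2 fold change of Atp6ap2 iECKO over control with its 95% interval (limma) for the 10 genes and for 3 lists of related genes, where blue and red mark genes past an adjusted *P* value of 0.05. *Lama2* is the only blue point in the first panel at -1.48, 2 receptors and 5 other basement membrane genes are blue, and *Tinagl1* at 1.14 is the only red point.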

How the data were processed

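Gene expression was measured by RNA-Seq in 6 iLEC libraries, 3 per genotype. The authors aligned reads to mm10 with the BaseSpace RNA-Seq alignment tool (2.0.1) and quantified genes with the differential expression tool (1.0.1). The annotation they used is not given in the sources used here. The authors deposited a normalized signal per gene and library. The labels call it raw counts, but above 0 it is never whole, and the median ratio to the geometric mean is 1.0036 in every library. Read numbers are unknown, so no counting interval is given, and no count model was run.

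Values were analysed as log2(normalized count + 1) for the 14456 genes with at least 10 in at least 3 libraries. Genotypes were compared with limma 3.58.1 (R 4.3.3, mean-variance trend, no covariate), with Benjamini-Hochberg adjustment over all genes tested and a threshold of 0.05. Ratios and shares were compared by exact permutation over the 6 libraries. Exon lengths and positions came from GENCODE M21 (GRCm38), which matched 24490 symbols (98.1%).

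The 10 genes and all lists were chosen with earlier results of these data known. Named were all 10 genes, *Atp6ap2*, members of the lists of other laminin chains, receptors and other basement membrane genes past the threshold (where a list had none, its 3 largest changes), and the 5 genes closest in profile to *Lama2* and to *Lama4*. The study calls the samples biological replicates. Nothing in the labels says that they are separate animals, so *P* values measure the spread between these samples. Marker lists are given by counts and sums, and other genes named were picked after their values had been seen. A gene that the lists first held is not counted in them or reported here.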

Additional observations from a re-analysis of the deposited data

How the results depend on the processing

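*Lama2* kept a negative log2 fold change and an adjusted *P* value below 0.05 in 16 of 17 alternatives, between -1.67 and -1.32, the exception being the libraries with high *Xist* only. No member changed sign in any alternative. The count of the 10 genes called, 1, was 2 with endothelial marker scaling (*Lama2* and *Agrn*), 2 with a minimum of 50, 4 at an adjusted *P* value below 0.1, 0 in the *Xist*-high libraries (2 with an unadjusted *P* value below 0.05), and 1 to 3 with a replicate left out. With the replicate number as a block it was 3 (*Lama2*, *Hspg2* with an adjusted *P* value of 0.0151 and *Agrn* with 0.0306), and 1508 over all genes (from 1193). Those numbers were not taken as pairs: across genes, departures from the genotype mean had r = 0.25, 0.11 and 0.08 between libraries of equal number, and control 3 was closer to mutant 2 (0.1) than to mutant 3. Control 3 and mutant 2 are the libraries low in *Xist*. All other pairs of unequal number had a negative r, down to -0.21 for control 1 and mutant 2, so that a pairing is not excluded. Exact sign-flip tests over the pairs gave *P* = 0.25 for the *Lama2* ratios, the least that 3 pairs allow. The 1193 calls over all genes (474 higher, 719 lower) split into 573 and 599 with library size scaling, and fell to 714 (187 and 527) with endothelial marker scaling, 304 without the mean-variance trend, 767 with *Xist* as a covariate, 0 in the *Xist*-high libraries (2196 with an unadjusted *P* value below 0.05), and went to 90 and 1987 at thresholds of 0.01 and 0.1, and 206 to 983 with a replicate left out (270 without control 3, 250 without mutant 2, 206 without mutant 3). Receptors called, 2, were 0 in the *Xist*-high libraries, 1 at 0.01 and 1 to 2 with a replicate left out. Other basement membrane genes, 6, were 2 without the trend, 0 in the *Xist*-high libraries, 2 at 0.01 and 2 to 7 with a replicate left out. *Atp6ap2* stayed at -1.54 to -1.0 with a replicate left out, at -1.19 in the *Xist*-high libraries, and at -1.22 without the trend or at 0.01, and passed in none of the last 3. The share of *Lama1* differed by -0.803 to 0.373 points with a replicate left out. The *Xist*-high alternative was chosen after seeing the data. The cause of these changes was not tested, beyond the fewer samples and other thresholds themselves. Scaling moved the median of all genes by at most 0.04 on the log2 scale.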
